A study of Arabidopsis thaliana with 16 samples.

Results

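The genes described here are those whose transcripts were strongly lowered by a synthetic auxin in Arabidopsis thaliana roots. They were chosen from the arrays as probe sets whose mean log2(intensity + 16) was lower by at least 2 in roots given NAA (1-naphthaleneacetic acid) than in mock roots. A mean mock intensity of at least 100 was also required, and probe sets that fell by 4 or more on the same scale in cycloheximide (CHX) were set aside, as were genes with symbols starting XTH, EXP, EXL or SWEET. The rule left 79 of 22746 probe sets. Of these members, 43 were annotated to exactly 1 gene (42 different genes), 4 to several genes and 32 to none, so members without a single gene are named by probe set only. Of the probe set IDs, 6 are of the kind that can detect more than 1 transcript.

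All seedlings carried gLBD16:GR, which is the transcription factor LBD16 joined to the glucocorticoid receptor (GR) and driven by its own regulatory sequences. The host was lbd16-1 lbd18-1 lbd33-1, so every group including mock was mutant for these 3 genes. Whole roots of seedlings aged 5 days were collected 4 h after treatment. The 8 groups of 2 arrays were NAA (1 µM) and mock (0.1% DMSO), NAA+DEX and DEX (2 µM dexamethasone), NAA+CHX and CHX (10 µM), and NAA+DEX+CHX and DEX+CHX. The series was made to find direct downstream genes of LBD16. The labels do not say whether the line is 1 transformant, nor how many seedlings went into a sample.

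Auxin acts within minutes by bringing Aux/IAA repressor proteins to degradation, which frees auxin response factors to switch genes on. Lateral roots begin in pericycle cells that respond to auxin, and LBD16 acts there downstream of the response factors. A GR fusion protein is held in the cytoplasm until DEX lets it into the nucleus. CHX blocks protein synthesis, so that a transcript change which needs a newly made protein is not expected while it is present. Root cells that elongate and mature express many secreted proteins of the wall, among them peroxidases, pectin enzymes and glycine-rich proteins, and the outer tissues also express many defence and transport proteins.

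The deposited intensities had been scaled so that the 2% trimmed mean was 500 on every array. The median intensity was 179.2 to 189.2 on the 8 arrays with CHX and 150.9 to 174.7 on the 8 without. As a sign of RNA quality, signal at the 3' end of the actin control over that at its 5' end was 2.47 to 3.14 with CHX and 2.64 to 3.18 without. Log2 values of the 2 mock arrays differed with an SD of 0.461 over all probe sets and 0.646 over the members, against 0.380 to 0.410 over all probe sets in the other groups. Of the 11 root and 15 shoot markers listed for a check of the tissue, 0 had a listed probe set, so the labelled tissue was not checked with them. The LBD16 probe set, which can detect the fusion transcript, averaged 5145 ± 102 in NAA and 474.1 ± 42.7 in mock (SD, n = 2 each), and 3542 ± 652 in NAA+DEX against 411.3 ± 36 in DEX.

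The arrays of NAA, mock and CHX chose the members, so the falls in NAA are a description without a test. The median intensity of the 79 members on an array was 89.63 and 88.14 in NAA, against 665.2 and 748.4 in mock. On the log2 scale the falls ran between -5.09 and -2.001. In 78 of 79 members both NAA arrays lay below both mock arrays, where 21.8% of all probe sets did. The exception, 249082_at, had 2.122 and 1.094 in NAA but 372.7 and 1.048 in mock, and lay between 1.066 and 2.465 on every other array. Its membership therefore rests on 1 mock array.

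The 12 single-gene members with the deepest falls in NAA had log2 differences between -4.75 and -2.76. They were AT4G25250 of the pectin methylesterase inhibitor family, the class III peroxidase gene AT3G01190, the wall protein gene AT2G41810 of the DUF642 family, AT1G19900 of the galactose oxidase type, AT5G66815 for a precursor of a C-terminally encoded signalling peptide, AT5G04120 of the phosphoglycerate mutase family, the glutathione transferase gene GSTU28, AT2G43890 of the polygalacturonase family, AT2G34610, the glutaredoxin gene AT1G06830, the receptor-like kinase gene AT5G24100 and AT4G13440. AT4G25250 fell most, with 52.42 and 66.71 in NAA against 1653 and 2447 in mock. AT3G01190 had 275.1 and 311.7 in NAA against 3372 and 4095 in mock. In both genes the NAA and mock arrays lay far apart.

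Close to the limits, 266419_at (-2.001), 252070_at (-2.01) and 264470_at (-2.01) were the last to be included by their fall, and AT5G47980 (-1.99), AT1G62510 (-1.98) and AT5G01740 (-1.97) were just outside. By mock mean intensity, AT3G12900 (104.4), 262730_at (114.9) and 262704_at (134.4) were just inside, while AT2G03370 (97.81) and AT3G46170 (81.78) were outside. By the log2 difference of CHX from mock, AT2G34610 (-3.82), AT4G11210 (-3.68) and 259388_at (-3.62) stayed in, and 264404_at (-4.28), AT3G45680 (-4.88) and AT4G30450 (-5.18) were set aside. The limit of 100 on the mock mean kept dim genes out, and 4 genes, EXLA2, EXPB1, XTH16 and XTH21, were dropped by family.

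**Figure D1:**
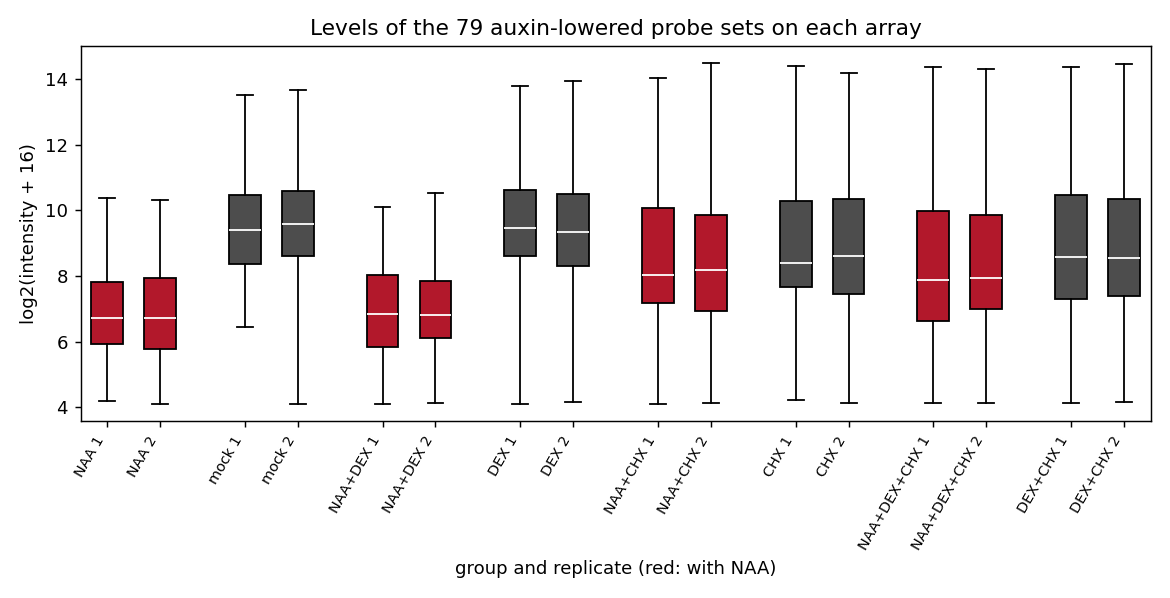
Log2(intensity + 16) of the 79 members on each of the 16 arrays, by group and replicate, with NAA arrays in red and arrays without NAA in grey. Boxes give the quartiles, the white line the median and whiskers the full range. The boxes of NAA and NAA+DEX lie well below those of mock and DEX, while the boxes of the arrays with CHX overlap each other.

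Whether the auxin fall recurs was tested in arrays that the rule did not use, by comparing NAA+DEX with DEX. Of the 79 members, 77 were lower in NAA+DEX and 0 were higher, where 9.82% of all probe sets were called lower and 14.1% higher (limma, adjusted p under 0.05). The members' median log2 difference was -2.55, against 0.08 over all probe sets, and their values ran between -5.57 and 0.00. On the arrays, the members' median intensity was 99.47 and 96.84 in NAA+DEX, against 692.0 and 631.1 in DEX. In 77 members both NAA+DEX arrays lay below both DEX arrays, where 25% of all probe sets did. These are extracts of whole roots, so fewer cells of a type and less RNA per cell cannot be told apart. The 2 members not called were 249082_at and 247991_at, which is described with the DEX comparisons.

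Of the single-gene members, 21 fall into 6 groups of known role, a grouping made after their values were seen and used only for order. The first is pectin. Pectin methylesterase removes methyl groups from pectin, its inhibitors slow this, and polygalacturonases cut the chain. All 4 members of these families were lower in NAA+DEX, with log2 differences between -5.57 and -1.50. The deepest was the inhibitor-family gene AT4G25250, with 24.34 and 47.98 in NAA+DEX against 2251 and 2541 in DEX, a log2 difference of -5.57 (SE 0.36, adjusted p = 1.8e-06). AT2G43890, of the polygalacturonase family, had 4.444 and 6.300 in NAA+DEX against 144.1 and 189.8 in DEX. The pectin methylesterase gene AT5G51490 had 5.894 and 41.83 in NAA+DEX against 256.6 and 234.6 in DEX. The NAA+DEX arrays of that gene differed widely from each other, and still lay far below both DEX arrays. The second inhibitor-family gene, AT1G23205, moved least of the 4, with 36.88 and 29.76 in NAA+DEX against 121.1 and 124.5 in DEX.

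Class III peroxidases are secreted enzymes that form or use reactive oxygen in the wall. All 3 such members were lower in NAA+DEX, by log2 differences between -3.76 and -1.60. AT3G01190 had 292.9 and 383.9 in NAA+DEX against 4682 and 4795 in DEX, a log2 difference of -3.76 (SE 0.15, adjusted p = 7.4e-08). AT4G30170 had 1086 and 1473 in NAA+DEX against 7579 and 7250 in DEX. AT2G39040 had 278.1 and 213.7 in NAA+DEX against 832.6 and 716.7 in DEX. The spread within each pair of arrays was small beside these differences.

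The 5 further wall genes fell in NAA+DEX, with log2 differences between -4.37 and -1.95. The glycine-rich protein gene AT4G30460 fell most among them, with 86.45 and 58.96 in NAA+DEX against 1661 and 1950 in DEX. AT2G41810 (DUF642) had 91.87 and 95.23 in NAA+DEX against 692.0 and 747.0 in DEX. AT1G19900, of the galactose oxidase type, had 5.784 and 52.87 in NAA+DEX against 505.1 and 433.0 in DEX. The dirigent gene AT4G11210, of a family that guides the coupling of lignan precursors, had 400.7 and 349.7 in NAA+DEX against 1666 and 1928 in DEX. AT2G47540, of the Ole e 1 and extensin type, had 265.1 and 281.0 in NAA+DEX against 1045 and 1162 in DEX. In none of the 5 did an NAA+DEX array reach a DEX array.

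Both single-gene members placed in the lipid transfer protein group fell. AT2G44300 had 127.7 and 97.05 in NAA+DEX against 761.3 and 862.9 in DEX. AT4G22460 had 186.3 and 246.1 in NAA+DEX against 1038 and 980.5 in DEX. Lipid transfer proteins are small secreted proteins that bind lipids. Members without a single gene were not given a role, so further members of these families among them are not counted. Both precursors of C-terminally encoded peptides, which move between cells and act through receptor kinases, fell too. AT5G66815 had 57.20 and 61.05 in NAA+DEX against 718.3 and 633.2 in DEX, a log2 difference of -3.20 (SE 0.23, adjusted p = 3.6e-06). AT3G50610 had 52.67 and 58.12 in NAA+DEX against 280.3 and 241.4 in DEX, a log2 difference of -1.95 (SE 0.23, adjusted p = 0.00015).

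Enzymes of metabolism and redox made up the last group, in which all 5 members were lower in NAA+DEX, between -4.16 and -0.93 on the log2 scale. AT2G25150, of the acyltransferases that join hydroxycinnamic acids to spermidine, had 2.974 and 34.32 in NAA+DEX against 570.7 and 502.0 in DEX. GSTU28 had 251.1 and 215.1 in NAA+DEX against 1302 and 1172 in DEX. The glutaredoxin gene AT1G06830 had 99.47 and 77.02 in NAA+DEX against 586.5 and 492.4 in DEX. The shallowest call of the group was AT3G12900, which hydroxylates the coumarin scopoletin, with 31.99 and 29.99 in NAA+DEX against 68.80 and 78.77 in DEX (log2 -0.93, SE 0.31, adjusted p = 0.048). The remaining member, the aldo-keto reductase gene AT5G62420, had 39.97 and 55.10 in NAA+DEX against 276.9 and 313.5 in DEX.

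The members outside these groups included AT5G04120, with 52.43 and 105.8 in NAA+DEX against 2017 and 1345 in DEX. The actin gene ACT11 had 142.0 and 137.8 in NAA+DEX against 786.3 and 817.7 in DEX. The defensin-like gene AT2G43550 had 45.39 and 27.73 in NAA+DEX against 438.4 and 373.6 in DEX. In these genes no NAA+DEX array reached a DEX array. AT3G45700, of the nitrate and peptide transporter family, had 25.57 and 53.12 in NAA+DEX against 351.2 and 549.1 in DEX. AT1G22330, which encodes an RNA-binding protein, has 2 member probe sets, which fell by 2.42 and 1.77 on the log2 scale.

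Deep falls were also found in probe sets without a single gene, here chosen after their values were seen. Probe set 254820_s_at, annotated to several genes, had 614.8 and 922.6 in NAA+DEX against 14140 and 15690 in DEX. Probe set 248844_s_at, also annotated to several genes, had 401.6 and 539.5 in NAA+DEX against 8734 and 8863 in DEX. Signals of such probe sets cannot be assigned to 1 transcript.

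**Figure D2:**
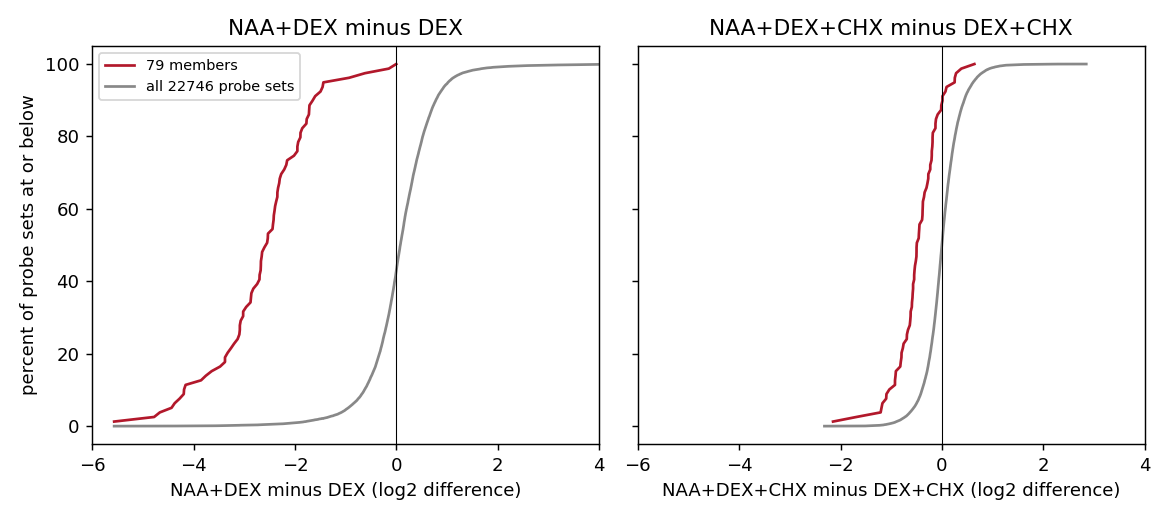
Share of probe sets (percent) at or below each log2 auxin difference, for the 79 members (red) and all 22746 probe sets (grey), as NAA+DEX minus DEX on the left and NAA+DEX+CHX minus DEX+CHX on the right. The members' median is -2.55 on the left and -0.49 on the right, against 0.08 and 0.00 over all probe sets, and the axis is drawn between -6 and 4.

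With protein synthesis blocked, the auxin response of the members was much smaller. NAA+DEX+CHX was compared with DEX+CHX, 4 arrays that the rule and the comparison above did not use. Of the 79 members, 4 were called lower and 0 higher (limma, adjusted p under 0.05), where 0.536% of all probe sets were called lower and 0.642% higher. At an unadjusted p under 0.05, 36 members were lower and 1 was higher, against 1392 and 1428 of all 22746 probe sets. The members' median log2 difference was -0.49, against 0.00 over all probe sets, with values between -2.15 and 0.64. Below 0 lay 70 members, and in 59 both NAA+DEX+CHX arrays lay below both DEX+CHX arrays, where 22.3% of all probe sets did. The members' median intensity was 219.6 and 227.1 in NAA+DEX+CHX, against 364.4 and 359.8 in DEX+CHX. On the log2(intensity + 16) scale the median member kept 71% of its DEX+CHX level in NAA+DEX+CHX, whereas it kept 17.1% of its DEX level in NAA+DEX.

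The largest fall in CHX belonged to 247586_at, with 179.0 and 170.3 in NAA+DEX+CHX against 825.8 and 831.5 in DEX+CHX (log2 -2.15, SE 0.15, adjusted p = 0.00029). Without CHX it had 342.6 and 391.6 in NAA+DEX against 3132 and 2804 in DEX, so its fall was deep in both settings. AT5G02000 had 179.8 and 191.1 in NAA+DEX+CHX against 365.4 and 368.0 in DEX+CHX (log2 -0.93, SE 0.16, adjusted p = 0.025). Probe set 248844_s_at had 2189 and 2615 in NAA+DEX+CHX against 5022 and 4082 in DEX+CHX, and 255005_at had 133.3 and 166.4 in NAA+DEX+CHX against 308.9 and 245.9 in DEX+CHX, each with an adjusted p of 0.034. The call of 247586_at held in 25 of 25 alternative settings, that of AT5G02000 in 20, that of 248844_s_at in 13 and that of 255005_at in 12. The count of 4 rested on single libraries: it was 1 without either NAA+DEX+CHX array or without DEX+CHX replicate 1, and 2 without DEX+CHX replicate 2, either DEX array or either NAA array. It was 21 with an intensity trend and a robust prior for the variance together, a setting in which the count over all probe sets rose too.

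The other single-gene members named for their falls in CHX did not pass the test. AT4G25250 had 27.66 and 89.63 in NAA+DEX+CHX against 126.5 and 156.9 in DEX+CHX (log2 -1.21, SE 0.36, adjusted p = 0.16). AT5G04120 had 985.4 and 971.0 in NAA+DEX+CHX against 2368 and 2093 in DEX+CHX (log2 -1.17, SE 0.28, adjusted p = 0.082). In both genes the arrays of the 2 groups did not overlap. The log2 difference was -0.91 for AT3G45700, -0.80 for AT4G11210, -0.80 for AT3G21680, -0.77 for AT4G30460 and -0.76 for AT2G25150. At the other end, AT1G30990, a Bet v 1-like gene chosen after its values were seen, had 422.3 and 477.1 in NAA+DEX+CHX against 286.8 and 277.9 in DEX+CHX (log2 0.64, adjusted p = 0.11).

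By role, the 3 peroxidase genes lay between -0.59 and -0.50 on the log2 scale in CHX, and none was called. AT3G01190 had 3282 and 3221 in NAA+DEX+CHX against 4788 and 4731 in DEX+CHX, with an adjusted p of 0.14. The arrays of the peroxidase genes did not overlap, as AT4G30170 had 4898 and 5331 in NAA+DEX+CHX against 7501 and 7911 in DEX+CHX. The 4 pectin genes ran between -1.21 and -0.02 and the 5 other wall genes between -0.80 and -0.18. Among the pectin genes, AT2G43890 (-0.02) and AT5G51490 (-0.12) had DEX+CHX means of only 7.087 and 24.9. At such levels a fall could hardly be measured. Both peptide precursors, at -0.45 and -0.18, and the 5 genes of metabolism, between -0.76 and 0.28, had no call either.

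The difference between the auxin responses with and without CHX was itself tested. It was positive, meaning a smaller fall with CHX, in 68 of 79 members that passed, and negative in 0, where 4.32% of all probe sets passed as positive and 4.95% as negative (limma, adjusted p under 0.05). The median was 2.23, against -0.07 over all probe sets. The members were chosen for a deep auxin fall without CHX, so the shares over all probe sets are not a like comparison. The median probe set had little auxin response to lose, with a log2 difference of 0.08 in NAA+DEX against DEX. Leaving out 1 array at a time gave 59 to 68 members. The largest values among single genes were 4.36 for AT4G25250, 3.60 for AT4G30460, 3.51 for AT2G34610, 3.40 for AT2G25150, 3.21 for AT3G01190, 3.10 for AT1G19900, 3.07 for AT2G43890 and 3.01 for AT5G04120. For AT2G34610 and AT1G19900 the call was lost with a pseudocount of 1, at adjusted p values of 0.082 and 0.055.

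The level without auxin, from which the 2 responses start, differed between genes. AT3G01190 had 4788 and 4731 in DEX+CHX against 4682 and 4795 in DEX. AT5G04120 had 2368 and 2093 in DEX+CHX against 2017 and 1345 in DEX, a log2 difference of 0.43 (SE 0.28, adjusted p = 0.24). AT2G34610, AT2G43890 and AT2G25150 were under 100 on all arrays with CHX. AT2G34610 had 4.906 and 21.72 in NAA+DEX+CHX against 24.32 and 15.39 in DEX+CHX. AT2G43890 had 7.783 and 5.935 in NAA+DEX+CHX against 7.184 and 6.991 in DEX+CHX. AT2G25150 had 14.77 and 39.44 in NAA+DEX+CHX against 49.45 and 58.33 in DEX+CHX. At such levels a fall in CHX could hardly be measured. A DEX+CHX mean under 100 was found for 12 members, and 10 of them passed the test of the difference. Among the 67 with a mean of at least 100, 58 passed, with a median response in CHX of -0.50 and a median kept level of 70.6%. Of the 45 members called lower in DEX+CHX than in DEX, 44 passed. Of the 17 called higher 14 passed, and of the 17 without a call 10 did. The sorting and the difference both use the DEX and DEX+CHX arrays. A low DEX+CHX value or a high DEX value pushes a member towards the lowered class and towards a positive difference at once. The pass counts of these classes are thus partly fixed by the shared arrays, and no conclusion is drawn from comparing them. In the lowered members, AT4G25250 and AT4G30460 among them, the lower start left less room for a fall in CHX. Its share in the differences was not tested.

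The 11 members that did not pass included AT1G04330, AT3G49190 and AT1G23205, with differences of 0.42, 1.08 and 1.12. AT1G04330 had 1356 and 1078 in NAA+DEX+CHX against 1318 and 1470 in DEX+CHX, and without CHX 234.6 and 217.0 in NAA+DEX against 414.3 and 304.7 in DEX. Its auxin fall in NAA+DEX was thus itself small, at -0.62 (adjusted p = 0.027). AT2G39040 had the smallest passing value among single genes, 1.1 (SE 0.21, adjusted p = 0.0071).

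NAA+CHX against CHX uses the CHX arrays, on which the choice of members rests, and is a description. NAA+CHX minus CHX had a median of -0.35 over the members and 0.01 over all probe sets. It was at or under -1 in 7 members, where 0.484% of all probe sets were, and at or over 1 in 0, where 0.875% were. It lay below 0 in 74 members. The members' median intensity was 246.2 and 275.9 in NAA+CHX, against 321.6 and 374.5 in CHX.

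**Figure D3:**
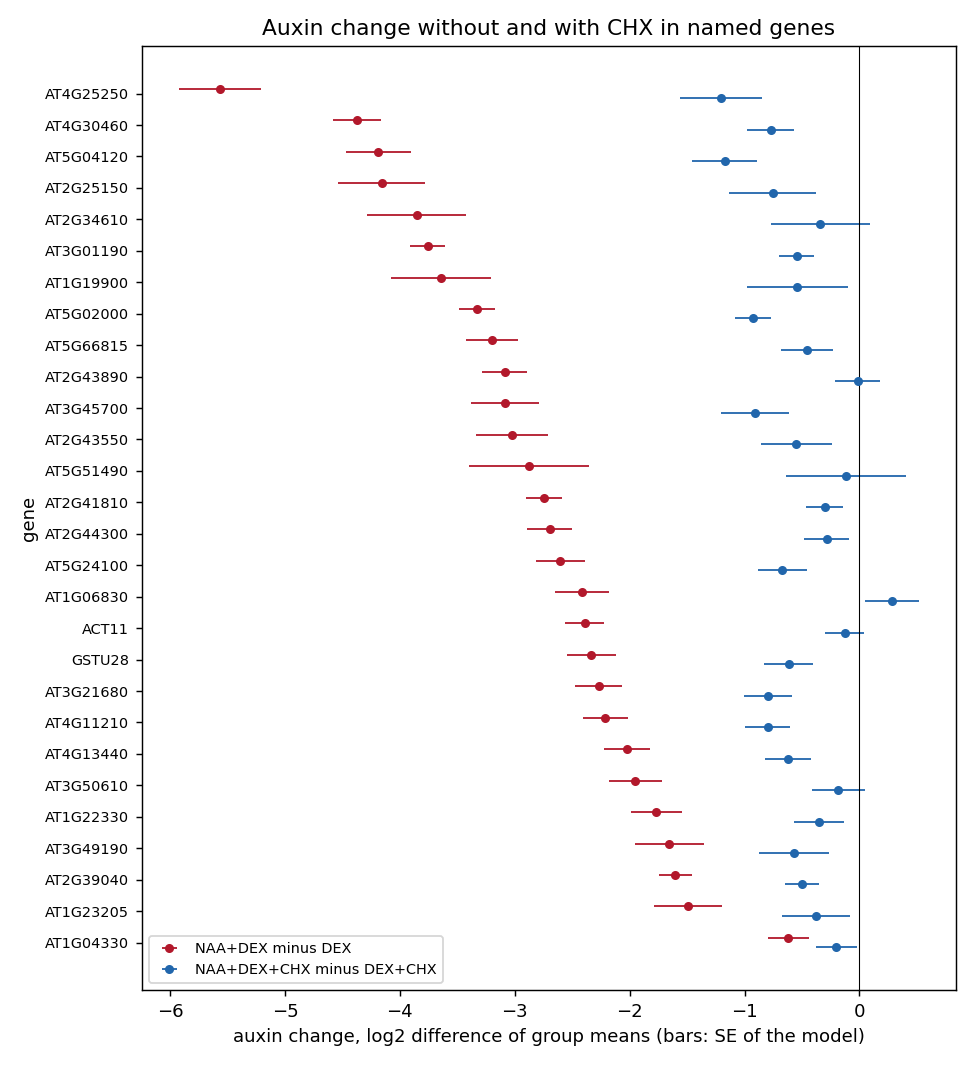
Log2 auxin difference of the 28 single genes named by rule, as NAA+DEX minus DEX (red) and NAA+DEX+CHX minus DEX+CHX (blue), with bars for the SE of the model. The red points run between -5.57 and -0.62, and each blue point lies closer to 0 than the red point of its gene.

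CHX without auxin, in the presence of DEX, also moved many members, as it did many probe sets. In DEX+CHX against DEX, 45 members were lower and 17 higher, where 26.6% and 24.2% of all probe sets were (limma, adjusted p under 0.05), and the median was -0.90 against -0.02 over all probe sets. The rule had removed the deepest falls in CHX against mock, so the count of lower members is cut by the choice of members. This comparison shares the DEX and DEX+CHX arrays with the auxin comparisons, so the values are set side by side only. The same ratio for the ubiquitin control was 1.01 to 1.42 with CHX and 1.01 to 1.29 without, and its part in these results was not tested.

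The 6 named falls in CHX held 3 genes of the wall. AT4G25250 had 126.5 and 156.9 in DEX+CHX against 2251 and 2541 in DEX, a log2 difference of -3.94 (SE 0.36, adjusted p = 2.8e-06). The defensin-like gene AT2G43550 had 16.76 and 25.44 in DEX+CHX against 438.4 and 373.6 in DEX, a difference of -3.51. The dirigent gene AT4G11210 had 171.4 and 151.1 in DEX+CHX against 1666 and 1928 in DEX, a difference of -3.35. In these 3 genes both DEX+CHX arrays lay far below both DEX arrays. AT2G34610 and AT2G41810 each fell by 3.31 on the log2 scale, and AT2G25150 had a difference of -2.98. By role, all 5 other wall genes, both lipid transfer genes and 3 of 4 pectin genes fell, whereas 1 of 3 peroxidase genes did. AT3G01190 and AT4G30170 had log2 differences of 0.01 and 0.06, with adjusted p values of 0.98 and 0.80.

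Both peptide precursors rose in CHX. AT3G50610 had 2012 and 1652 in DEX+CHX against 280.3 and 241.4 in DEX, a log2 difference of 2.74 (SE 0.23, adjusted p = 1.6e-06). AT5G66815 had 1935 and 1774 in DEX+CHX against 718.3 and 633.2 in DEX, a difference of 1.44 (SE 0.23, adjusted p = 0.00024). Every DEX+CHX array of both genes lay above every DEX array. The other named rises were 1.92 for AT1G04330, 1.83 for the glutaredoxin gene AT1G06830, 1.67 for AT1G22330 and 1.26 for ACT11. The largest rise of all was that of 255549_at, a probe set chosen after its values were seen, with 9444 and 9919 in DEX+CHX against 394.1 and 479.9 in DEX. Over the 17 members that rose, the median intensity was 1394 in DEX+CHX and 359.5 in DEX. The share of members that rose was no larger than that of all probe sets, so rising in CHX is not particular to them.

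In these 17 members the auxin fall was seen without CHX and was small with it. Their median level was 77.02 in NAA+DEX against 359.5 in DEX, and 1217 in NAA+DEX+CHX against 1394 in DEX+CHX. The median log2 auxin difference was -0.20 with CHX and -2.02 without. In the 45 members that CHX lowered, the values were -0.53 with CHX and -2.82 without. In the 17 members without a call for CHX they were -0.55 with CHX and -2.40 without. AT3G50610, for instance, had 1653 and 1554 in NAA+DEX+CHX against 2012 and 1652 in DEX+CHX, a log2 difference of -0.19 (adjusted p = 0.83). AT5G66815 had 1302 and 1395 in NAA+DEX+CHX against 1935 and 1774 in DEX+CHX, a difference of -0.45 (adjusted p = 0.46). AT1G06830 had 2505 and 2262 in NAA+DEX+CHX against 1949 and 1969 in DEX+CHX, a difference of 0.28 (adjusted p = 0.71).

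**Figure D4:**
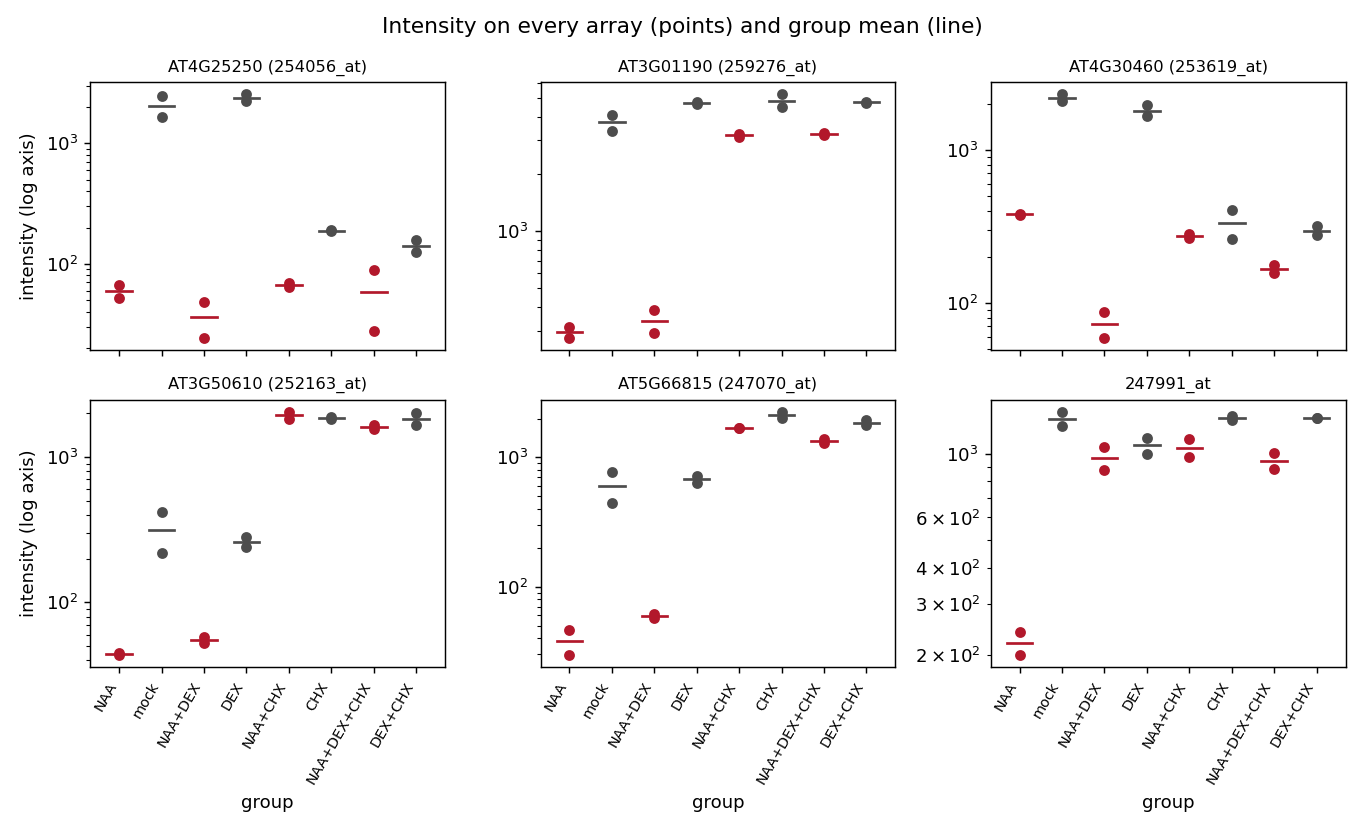
Intensity (log axis) on every array (points) with group means (lines) for 5 genes and 247991_at, with NAA groups in red and the groups without NAA in grey. AT4G25250 and AT4G30460 are low on all CHX arrays, AT3G01190 is high on them, AT3G50610 and AT5G66815 are highest on them, and 247991_at is low in NAA alone.

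Activation of the LBD16 fusion by DEX was tested where the rule used no array, in NAA+DEX+CHX against NAA+CHX. No member was called, with 0 lower and 0 higher by limma, where 0.0176% of all probe sets were lower and 0.0923% higher. At an unadjusted p under 0.05, 3 members were lower and 2 higher, against 835 and 469 of all 22746 probe sets. The median log2 difference was -0.11, against -0.02 over all probe sets, and 55 members lay below 0. The NAA+CHX arrays took no part in choosing the members. The LBD16 probe set averaged 1142 ± 21 in NAA+CHX and 1432 ± 11.9 in NAA+DEX+CHX, against 5145 ± 102 in NAA (SD, n = 2 each). The comparison therefore cannot speak for auxin-treated roots without CHX, where the LBD16 transcript was higher.

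In auxin without CHX, NAA+DEX minus NAA shares the NAA arrays with the rule and is given as a description. The members' median was 0.11, with 6 members at or under -1 and 5 at or over 1, where 1.54% and 1.24% of all probe sets were. The lowest value was that of the glycine-rich protein gene AT4G30460, at -2.17, with 86.45 and 58.96 in NAA+DEX against 380.4 and 375.9 in NAA. AT2G25150 had 2.974 and 34.32 in NAA+DEX against 65.38 and 62.02 in NAA, and AT2G34610 had 2.289 and 16.42 in NAA+DEX against 46.03 and 31.18 in NAA. In these 3 genes every NAA+DEX array lay below both NAA arrays. The other 3 members at or under -1 have no single gene: 259388_at at -1.31, 261428_at at -1.24 and 252605_s_at at -1.16. Among single genes the next were AT2G44300 at -0.70, AT4G25250 at -0.57 and AT5G51490 at -0.51. With CHX the difference of AT4G30460 was -0.67 (SE 0.21, adjusted p = 0.58), with 156.4 and 176.9 in NAA+DEX+CHX against 266.6 and 280.9 in NAA+CHX.

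Of the single genes that lay higher with DEX in auxin, AT1G06830 had a log2 difference of 1.22, AT1G04330 of 1.15, GSTU28 of 1.06 and AT2G41810 of 0.89. GSTU28 had 251.1 and 215.1 in NAA+DEX against 80.68 and 131.4 in NAA. The highest value was that of 247991_at, at 2.05, with 875.3 and 1050 in NAA+DEX against 199.9 and 239.7 in NAA. It had 996.5 and 1137 in DEX, and NAA+DEX differed from DEX by -0.15 (SE 0.15, adjusted p = 0.53). With CHX, it had 1004 and 881.4 in NAA+DEX+CHX against 1329 and 1334 in DEX+CHX. Among the 8 groups, NAA alone thus had the low level of 247991_at. In DEX against mock, 1 member, 249082_at, was at or under -1 and 0 were at or over 1, where 0.743% and 0.361% of all probe sets were.

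Genes of related function were taken from 16 lists matched by gene symbol, of which 12 had a measured gene. No member carries a symbol that a list matched, since most members are annotated by locus only. Other genes annotated by locus only are missed in the same way. The lists therefore show only genes with a matching symbol, not whole families. The counts below stand beside 9.82% lower and 14.1% higher over all probe sets in NAA+DEX against DEX. Among the 12 genes of wall structural proteins and pectin, 2 were lower and 1 higher, with a median log2 difference of -0.25. Among the 7 class III peroxidase genes matched by symbol, 3 were lower and 0 higher. Of the 51 UDP-glycosyltransferase genes, which attach sugars to hormones and secondary metabolites, 19 were lower and 3 higher. Among 5 genes of glucosinolate synthesis 4 were lower. Of the 83 probe sets of 81 transcription factor genes, 4 were lower and 15 higher. Of 22 cytochrome P450 genes 5 were lower and 0 higher, and of 16 genes of mineral nutrient transport 4 were lower and 2 higher. The 7 phenylpropanoid genes had 2 lower and 0 higher, and the 7 genes of the abscisic acid and dehydration response 0 lower and 1 higher. Of the 2 A-type response regulator genes 1 was lower, and the 1 ethylene gene and the 1 germin-like gene had no call.

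Genes next to a member on the chromosome were also read. For 41 member genes, 39 neighbouring genes that are not members were measured, and 13 were lower and 2 higher in NAA+DEX than in DEX, with a median of -0.12, where 9.82% of all probe sets were lower and 14.1% higher. None of these 41 genes had another of them as its immediate neighbour. The 32 members with no gene listed and the 4 with several were not read, so adjacent members among them would be missed. The deepest falls among neighbours were -4.72 for AT4G30450 beside AT4G30460, -2.41 for AT4G11190 next to AT4G11210 in the gene table, -1.86 for AT3G45710 beside AT3G45700 and -1.71 for AT4G25260 beside AT4G25250. AT4G30450 itself met the limits on the fall in NAA and on the mock mean. It is not a member only because of its fall in CHX. Where neighbours are similar copies, part of the signal may be shared between their probe sets, and the neighbours' values are uncertain to that extent.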

How the data were processed

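Transcript levels were measured on 16 single-channel arrays. The deposited table gives 1 linear intensity per probe set and array, made by the authors with Affymetrix Expression Console 1.3, per the submitters' processing notes; the summary method and background correction are not given in the sources used here. Of 22810 probe sets, 64 controls were left out. The remaining 22746 were all tested, dim ones included. Probe sets were named from the platform annotation and a RefSeq gene table (13513 with 1 gene, 503 with several, 8730 with none listed); protein and gene roles are background knowledge. No sequence is printed, and the planned promoter motif search was not run, since no promoter sequences were used here.

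The scale was log2(intensity + 16), on which changes of dim genes are understated. Groups were taken from sample titles. The 8 group means were fitted together over the 16 arrays with limma 3.58.1 under R 4.3.3 (8 residual degrees of freedom), with two-sided moderated tests and Benjamini-Hochberg adjustment over all 22746 probe sets; a call needs an adjusted p under 0.05. The code was tested on simulated data. The 5 comparisons tested set only groups among the 10 arrays that the choice of members did not use against each other, while the variance is estimated over all 16. The labels speak of independent sets per treatment and do not say that numbers pair them; same-numbered arrays' deviations correlated between -0.06 and 0.07 over 28 pairs of groups, so numbers were not treated as pairs. Each p measures only the spread among these arrays, whose small number limits the precision. Alternatives were the pseudocount, a low value filter, quantile and median scaling, array weights, an intensity trend with a robust prior, the 10 arrays alone, a replicate block and leaving out each array.

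The members, the gene lists and the tests were chosen with earlier results of these data known. Named single genes are the 12 deepest falls in NAA, the 8 deepest in NAA with DEX and CHX, the 8 largest and 4 smallest differences between auxin responses, the 6 largest called changes each way in DEX+CHX against DEX, the 6 lowest and 4 highest in NAA+DEX against NAA, and those nearest the limits. Other named members were chosen after their values were seen, for their role or because a count singled them out.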

Additional observations from a re-analysis of the deposited data

Results flagged for a closer look

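The auxin response differed with CHX in 68 of 79 members, by the test of the difference itself in limma. All were positive, where 4.32% of all probe sets passed as positive and 4.95% as negative. Of these members, 10 had a DEX+CHX mean under 100, where a fall in CHX could hardly be measured. The 3 single genes with the largest differences on the log2 scale were AT4G25250 at 4.36, AT4G30460 at 3.60 and AT2G34610 at 3.51. All 3 started lower in CHX, which left less room for a fall there. Mean intensity in DEX+CHX against DEX was 141.7 and 2396 for AT4G25250, 296.1 and 1805 for AT4G30460, and 19.86 and 342.5 for AT2G34610. How much of each difference came from the lower start was not tested. AT4G30460 had 156.4 and 176.9 in NAA+DEX+CHX against 275.3 and 316.9 in DEX+CHX, and 86.45 and 58.96 in NAA+DEX against 1661 and 1950 in DEX. For AT2G34610, all arrays with CHX were dim, and the call was lost with a pseudocount of 1. Groups of 2 arrays are too small for a test of single outlying arrays.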

How the results depend on the processing

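The count of members lower in NAA+DEX+CHX than in DEX+CHX, 4 as reported, was the count that moved most. It was 1 with a pseudocount of 1, 2 in a model of the 10 arrays alone, 8 with array weights, 14 with a low value filter of 50, 17 with a pseudocount of 64 and 21 with an intensity trend and a robust prior, and leaving out 1 array gave 1 to 5. Over all probe sets, the count called lower in this comparison moved the same way. It was smaller than in the main fit with a pseudocount of 1 and in the 10 arrays alone. It was larger with array weights, the filter, a pseudocount of 64, and the trend with a robust prior. The direction of these shifts is therefore not particular to the members, and their cause was not tested. The other counts stayed within 1.5 times of those reported: 75 to 77 members were lower in NAA+DEX than in DEX, 58 to 70 had a smaller fall with CHX, and 41 to 47 were lower and 15 to 17 higher in DEX+CHX than in DEX. With the replicate block the counts were 76 lower in NAA+DEX, 3 lower in NAA+DEX+CHX, 68 with a smaller fall, and 45 lower and 17 higher in DEX+CHX. In NAA+DEX+CHX against NAA+CHX the count was 0 both ways under each of these settings. Of the values of named genes under these settings, 1178 kept their side of the threshold, 32 lost the call and 12 gained it. No called value changed sign, but that of 249082_at in NAA+DEX against DEX, which was never called, ran between -0.13 and 0.02. Over all probe sets in NAA+DEX against DEX, 2233 were lower and 3203 higher as reported, 2512 and 2580 after quantile scaling, and 2843 and 2296 after median centring. For the difference between auxin responses the counts were 1125 and 983 as reported, 925 and 1053 after quantile scaling, and 792 and 1169 after median centring. In DEX+CHX against DEX they were 6054 and 5513 as reported, and 7460 and 4515 after median centring, where the median of all probe sets was -0.226. Detection calls were not used here, so levels near the dim end of the scale have no stated floor.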
